A study of Homo sapiens with 6 samples.

Results

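The BCL2 family of apoptosis regulators was examined in U87-MG cells with and without CHRM3 knockdown. The 10 genes were taken by a list of names from the 61731 genes and loci of the deposited table. They comprise the guardians BCL2, BCL2L1, MCL1 and BCL2A1, the effectors BAX and BAK1, and the BH3-only genes BBC3, PMAIP1, BID and BCL2L11. All 10 were matched by symbol to 1 Ensembl gene each. U87-MG is a long-established line of human glioblastoma cells. The study sequenced RNA of 3 libraries labelled normal control (U87_NC), which the paper calls negative control, and 3 libraries labelled CHRM knockdown (U87_KD). The knockdown used a lentivirus against CHRM3, the M3 muscarinic acetylcholine receptor. The sources do not say which of the published knockdown sequences these cells carried, or whether replicate libraries were made from different cultures. The p-values therefore measure the spread between these libraries, which may be technical.

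Proteins of the BCL2 family decide at the outer mitochondrial membrane whether a cell enters the intrinsic pathway of apoptosis. BAX and BAK1 form pores that release cytochrome c, the guardians hold them and the BH3-only proteins back, and BH3-only proteins carry death signals by filling the groove of the guardians or by activating BAX and BAK1. Tumor cells often depend on a guardian such as BCL2L1 (BCL-XL) or MCL1, and these proteins are the targets of BH3-mimetic drugs.

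The feature that ties these genes together is the BH3 motif, a short helix by which the proteins bind one another. Its core was searched in the coding sequence of 1 annotated transcript per gene, as a leucine codon, 3 further codons, a glycine or alanine codon and an aspartate codon. This pattern was present in 9 of the 10 members, each with 1 match, and in 24.8% of 19495 coding sequences of the annotation. The 27 bases from the leucine codon are shown for the 9 members because they are the shared element of the family, with the leucine, the glycine or alanine, and the aspartate codons in capitals.
BCL2: CTCcgccaggccGGCGACgacttctcc
BCL2L1: CTGagggaggcaGGCGACgagtttgaa
MCL1: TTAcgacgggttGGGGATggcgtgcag
BAX: CTCaagcgcatcGGGGACgaactggac
BAK1: CTCgccatcatcGGGGACgacatcaac
BBC3: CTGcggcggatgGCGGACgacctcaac
PMAIP1: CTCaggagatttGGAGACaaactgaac
BID: CTCgcccaggtcGGGGACagcatggac
BCL2L11: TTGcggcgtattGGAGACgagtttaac
BBC3 was the member with an alanine codon at the fifth position, where the other 8 have a glycine codon. BCL2A1 held no match to this pattern in its transcript of 175 codons. In GRCh38 the windows lie at chr18:63318352-63318378 (minus strand) for BCL2, chr20:31721925-31721951 (minus) for BCL2L1, chr1:150578868-150578894 (minus) for MCL1, chr19:48955787-48955813 (plus) for BAX and chr6:33575390-33575416 (minus) for BAK1. Those of the BH3-only genes lie at chr19:47226582-47226608 (minus) for BBC3, chr18:59902673-59902699 (plus) for PMAIP1, chr22:17739418-17739444 (minus) for BID and chr2:111150103-111150129 (plus) for BCL2L11. Each window lies within a single coding exon. The deposited values are sums per gene, so splice forms with opposite roles, such as the long and short forms of BCL2L1 and MCL1, are not told apart.

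Values were deposited as TPM, a per-length share of each library that keeps no read depth, so the depth is unknown. Each library held 22597 to 23311 genes above 0 TPM. Mitochondrially encoded transcripts took 5.32 to 5.47% of the TPM in U87_NC and 4.41 to 4.87% in U87_KD, and the 50 most abundant genes took 25.3 to 25.5% and 26.8 to 27.3%. A fit with the mitochondrially encoded transcripts left out is given among the alternatives at the end. The part of the 50 most abundant genes in the results was not tested. CHRM3 itself was listed at 0.02, 0.09 and 0.13 TPM in U87_NC and at 0.13, 0.01 and 0.02 TPM in U87_KD. These levels are near the rounding step of 0.01 TPM, so its knockdown was not detectable in these values and the groups used here rest on the labels. The paper reports efficient CHRM3 knockdown in U87-MG cells from its own assays. Whether those assays used the cells of these libraries is not stated. Of 7 genes used as markers of glioblastoma lines, VIM, CD44, NES and GFAP had a mean of at least 1 TPM, whereas S100B, SOX2 and OLIG2 did not. Of 12 markers of other cell types, CD3E and TYROBP were listed at 0 in all libraries, and the 12 summed to 1.2 to 1.89 TPM in U87_NC and 1.7 to 2.31 TPM in U87_KD.

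A gene entered the limma test, on log2(TPM + 1), when its average over all 6 libraries reached 1 TPM, and it was called at a Benjamini-Hochberg adjusted p under 0.05. Fold changes are on this scale, which makes those of low genes smaller. Of the 10 members, 8 reached 1 TPM, and BCL2 and BCL2A1 did not. BCL2L1, BAX, BAK1 and BBC3 fell in the U87_KD libraries and MCL1 rose, whereas PMAIP1, BID and BCL2L11 did not pass the threshold. Over the 13722 tested genes, 36.1% were called, 24.0% as lower and 12.1% as higher, so calls of this kind were common in these libraries. The excess of lower calls depended on the scaling, since 2250 genes were lower and 2306 higher after median-of-ratios scaling, against 3295 and 1660 on the deposited TPM. Over the 8 tested members the log2 fold changes had a median of -0.28, beside -0.06 for all tested genes. The groups did not overlap for 6 of the 8 members, against 50.2% of all tested genes (32.8% lower and 17.4% higher). No tested member changed by 1 or more on the log2 scale in a call, which 1.87% of the tested genes did. Lower expression in every cell and a change in the share of expressing cells cannot be told apart in bulk RNA.

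**Figure D1:**
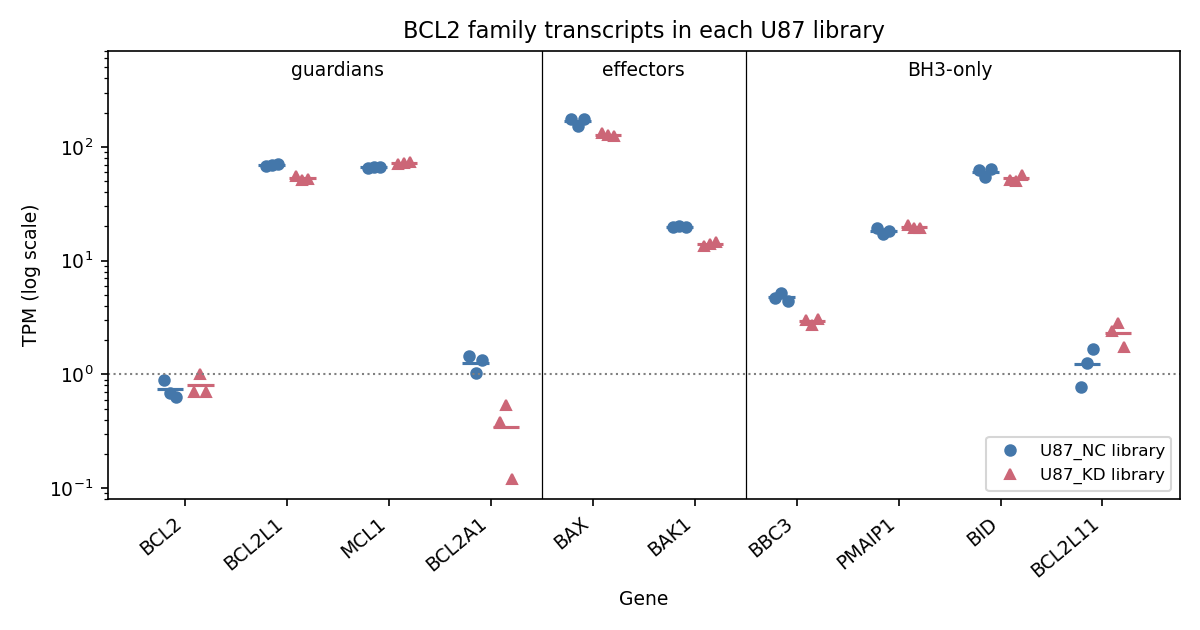
TPM of the 10 members (y axis, log scale) in each U87_NC library (circles) and U87_KD library (triangles), grouped by role, with short lines at the group means and a dotted line at 1 TPM. BAX is the most abundant member in every library, and BCL2 and BCL2A1 lie around or under 1 TPM.

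BCL2L1 and MCL1 were the abundant guardians, and their order differed between the groups. BCL2L1 encodes BCL-XL, which holds BAX and BAK1 in check at the mitochondrial membrane. Its gene (ENSG00000171552) lies on the minus strand at chr20:31664452-31723989. BCL2L1 was 67.34, 68.96 and 70.35 TPM in U87_NC replicates 1, 2 and 3, and 55.52, 51.37 and 52.54 TPM in U87_KD replicates 1, 2 and 3. Every U87_KD library was below every control. The mean fell from 68.9 ± 1.51 to 53.1 ± 2.14 TPM (SD, n = 3 each). On the log2 scale the difference was -0.37, with a standard error of 0.0376 and an adjusted p of 0.000639 by limma.

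MCL1 (ENSG00000143384, chr1:150574551-150579738, minus strand) encodes a short-lived guardian that binds BAK1, BCL2L11 and PMAIP1 proteins. Its level was 64.77, 66.92 and 66.61 TPM in U87_NC and 70.19, 71.56 and 73.39 TPM in U87_KD. All 3 U87_KD libraries were above the controls, by a small amount. The means were 66.1 ± 1.16 and 71.7 ± 1.61 TPM (SD, n = 3 each). The log2 difference was 0.12 (95% interval 0.05 to 0.19), and limma gave an adjusted p of 0.0229. After median-of-ratios scaling the log2 difference was 0.185 (limma adjusted p = 0.0042). The call was lost without U87_NC replicate 1 (limma adjusted p = 0.0762), U87_NC replicate 3 (0.0526), U87_KD replicate 2 (0.0594) or U87_KD replicate 3 (0.0632). In the controls each BCL2L1 value was above each MCL1 value, and in the U87_KD libraries each MCL1 value was above each BCL2L1 value.

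BCL2A1 and BCL2 were near the lower limit of the measurement. BCL2A1 (ENSG00000140379, chr15:79960889-79971446, minus strand) encodes BFL1, a guardian best known from blood cells and melanoma and a target gene of NF-kB. It was 1.44, 1.04 and 1.34 TPM in U87_NC and 0.38, 0.54 and 0.12 TPM in U87_KD. All 3 controls were above all 3 U87_KD libraries. The means were 1.27 ± 0.208 and 0.347 ± 0.212 TPM (SD, n = 3 each). An exact two-sided permutation test gave p = 0.10, the smallest p that 3 libraries against 3 allow. In limma fits that took in genes under 1 TPM, its log2 fold change was -0.76, with an adjusted p of 0.013 when 0.1 TPM was required and 0.027 when every gene was taken. The leukocyte marker PTPRC was at most 0.12 TPM in any library.

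BCL2 (ENSG00000171791, chr18:63123346-63320128, minus strand), the founding guardian, was 0.90, 0.69 and 0.63 TPM in U87_NC and 0.70, 1.01 and 0.70 TPM in U87_KD. These ranges overlapped. The exact two-sided permutation test gave p = 0.50, and in the limma fit with no limit on low values the log2 fold change was 0.05 (95% interval -0.25 to 0.35).

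Both effectors fell. BAX (ENSG00000087088, chr19:48954815-48961798, plus strand) encodes the effector that waits in the cytosol and moves to mitochondria. It was 176.85, 153.69 and 175.61 TPM in U87_NC and 132.19, 127.83 and 124.86 TPM in U87_KD. U87_NC replicate 2 was the lowest control and still lay above all U87_KD libraries. The mean fell from 168.7 ± 13.03 to 128.3 ± 3.69 TPM (SD, n = 3 each). On the log2 scale the difference was -0.39, with a standard error of 0.0578 and an adjusted p of 0.0029 by limma.

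BAK1 (ENSG00000030110, chr6:33572547-33580293, minus strand) encodes the effector that resides in the outer mitochondrial membrane. It was 19.62, 19.99 and 19.66 TPM in U87_NC and 13.40, 14.03 and 14.46 TPM in U87_KD. The controls lay within 0.4 TPM of each other and above every U87_KD library. The mean fell by 29.3%, from 19.8 ± 0.203 to 14.0 ± 0.533 TPM (SD, n = 3 each). On the log2 scale the difference was -0.47, with a standard error of 0.0432 and an adjusted p of 0.000414 by limma.

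Of the BH3-only genes, BBC3 fell and the other 3 did not pass the threshold. BBC3 (ENSG00000105327, chr19:47220822-47232766, minus strand) encodes PUMA, an activator of apoptosis that binds all guardians. It was 4.70, 5.15 and 4.40 TPM in U87_NC and 3.01, 2.71 and 3.08 TPM in U87_KD. The groups were separated by more than 1 TPM. The mean fell by 38.2%, from 4.75 ± 0.377 to 2.93 ± 0.197 TPM (SD, n = 3 each). On the log2 scale the difference was -0.55, with a standard error of 0.0871 and an adjusted p of 0.00386 by limma.

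PMAIP1 (ENSG00000141682, chr18:59899948-59904306, plus strand) encodes NOXA, which binds MCL1 and BCL2A1 proteins and promotes the breakdown of MCL1. It was 19.47, 17.27 and 18.31 TPM in U87_NC and 20.52, 19.46 and 19.46 TPM in U87_KD. U87_NC replicate 1 lay within the range of the U87_KD libraries. The log2 fold change was 0.11 (95% interval -0.02 to 0.24, limma adjusted p = 0.176). With the libraries rescaled by median of ratios it was 0.17 and past the threshold (limma adjusted p = 0.0499). In the controls PMAIP1 was below BAK1 in each library, and in the U87_KD libraries it was above BAK1 in each.

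BID (ENSG00000015475, chr22:17734138-17774770, minus strand) links death receptors to mitochondria after it is cut by caspase-8. It was 63.27, 54.57 and 64.42 TPM in U87_NC and 51.57, 50.52 and 56.25 TPM in U87_KD. U87_NC replicate 2 fell within the knockdown range, and the other 2 controls were above it. The log2 fold change was -0.20 (95% interval -0.37 to -0.02, limma adjusted p = 0.0801). Without U87_NC replicate 2 it was -0.27 and past the threshold (limma adjusted p = 0.0182).

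BCL2L11 (ENSG00000153094, chr2:111119378-111168447, plus strand) encodes BIM, a BH3-only activator under control of FOXO factors and of ERK. It was 0.77, 1.26 and 1.66 TPM in U87_NC and 2.42, 2.82 and 1.74 TPM in U87_KD. The groups did not overlap, but U87_NC replicate 3 and U87_KD replicate 3 lay 0.08 TPM apart. The means were 1.23 ± 0.446 and 2.33 ± 0.546 TPM (SD, n = 3 each). The log2 difference was 0.58 (95% interval 0.10 to 1.07), and limma gave an adjusted p of 0.0641. With a pseudocount of 0.1 TPM the log2 difference was 0.90 (limma adjusted p = 0.0661). The gene lies within the span of MIR4435-2HG, a lincRNA on the opposite strand, which was 136.53 to 154.59 TPM in U87_NC and 127.99 to 131.24 TPM in U87_KD. The strand setting of the counting is not given in the sources used here, and only whole gene spans were compared, not exons. Whether reads of the lincRNA entered the BCL2L11 values was therefore not tested. No other member overlapped an annotated gene with a mean above 0.02 TPM.

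**Figure D2:**
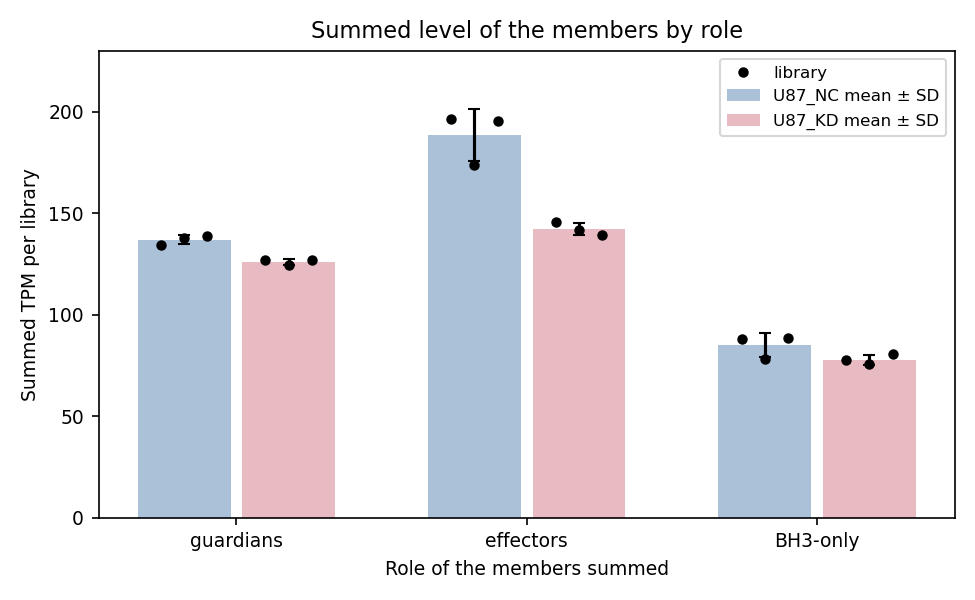
Summed TPM per library (y axis) of the 4 guardians, 2 effectors and 4 BH3-only members in U87_NC and U87_KD; bars show means with SD (n = 3) and points show libraries. The effectors show the widest gap, from 173.68 to 196.47 TPM in U87_NC and from 139.32 to 145.59 TPM in U87_KD.

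Summed by role, the effectors differed most between the groups. The 2 effectors summed to 188.5 ± 12.8 TPM in U87_NC and 142.3 ± 3.15 TPM in U87_KD (SD, n = 3 each), a difference of -24.5%. The 4 guardians summed to 137.0 ± 2.30 and 126.0 ± 1.32 TPM, a difference of -8.02%. The 4 BH3-only genes summed to 85.1 ± 5.92 and 77.9 ± 2.53 TPM, and their ranges overlapped. BAX made up most of the effector sum, and BID most of the BH3-only sum. After median-of-ratios scaling the means were 133.5 and 129.0 TPM for the guardians, 183.7 and 145.6 TPM for the effectors, and 82.93 and 79.68 TPM for the BH3-only genes. These sums were not tested.

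The ratio of BCL2L1 to its partner BAK1 was 3.43, 3.45 and 3.58 in the controls and 4.14, 3.66 and 3.63 in the U87_KD libraries. All 3 U87_KD libraries were above the controls, although U87_KD replicate 3 was close to U87_NC replicate 3. The ratio of MCL1 to PMAIP1 was 3.61 ± 0.275 in the controls and 3.62 ± 0.182 in the U87_KD libraries (SD, n = 3 each), with overlapping ranges. The ratio of BCL2 to BAX was 0.00439 ± 0.000756 and 0.00627 ± 0.00142 (SD, n = 3 each), so BCL2 transcripts were scarce beside BAX in both groups.

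Among 13 other genes of the family, 7 reached 1 TPM, of which 2 fell and 2 rose. Of all tested genes, 24.0% were called lower and 12.1% higher. BNIP3 and BNIP3L encode mitochondrial membrane proteins that recruit the autophagy machinery to mitochondria and are induced in hypoxia. BNIP3 was 123.14, 123.08 and 126.90 TPM in U87_NC and 397.14, 390.87 and 388.44 TPM in U87_KD. Its level was thus 3.15-fold higher, 1.65 on the log2 scale with a standard error of 0.0214 (adjusted p = 1.685e-07 by limma), the largest difference of any tested gene in the member list and these 13 genes. BNIP3L rose from 32.1 ± 2.57 to 57.3 ± 2.85 TPM (SD, n = 3 each), or 0.82 on the log2 scale (adjusted p = 0.000256 by limma).

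BCL2L12, which encodes a protein known to restrain caspases in glioma cells, fell from 71.5 ± 1.94 to 54.7 ± 4.22 TPM (SD, n = 3 each), or -0.38 on the log2 scale (adjusted p = 0.00287 by limma). BAD, a BH3-only gene whose protein is held inactive by phosphorylation, was 136.2 ± 0.974 TPM in U87_NC and 124.9 ± 2.35 TPM in U87_KD (SD, n = 3 each). Its log2 fold change of -0.12 (limma adjusted p = 0.00692) was no longer called after median-of-ratios scaling, where it was -0.06. BCL2L2 (BCL-W), BCL2L13 and BMF did not pass the threshold, with log2 fold changes of 0.06 (95% interval -0.04 to 0.15), 0.00 (95% interval -0.09 to 0.10) and 0.29 (95% interval -0.15 to 0.73). Of the untested genes, BIK was listed at 0 in all libraries, and BCL2L10, BOK, BCL2L14, BCL2L15 and HRK were at most 0.61 TPM in any library.

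**Figure D3:**
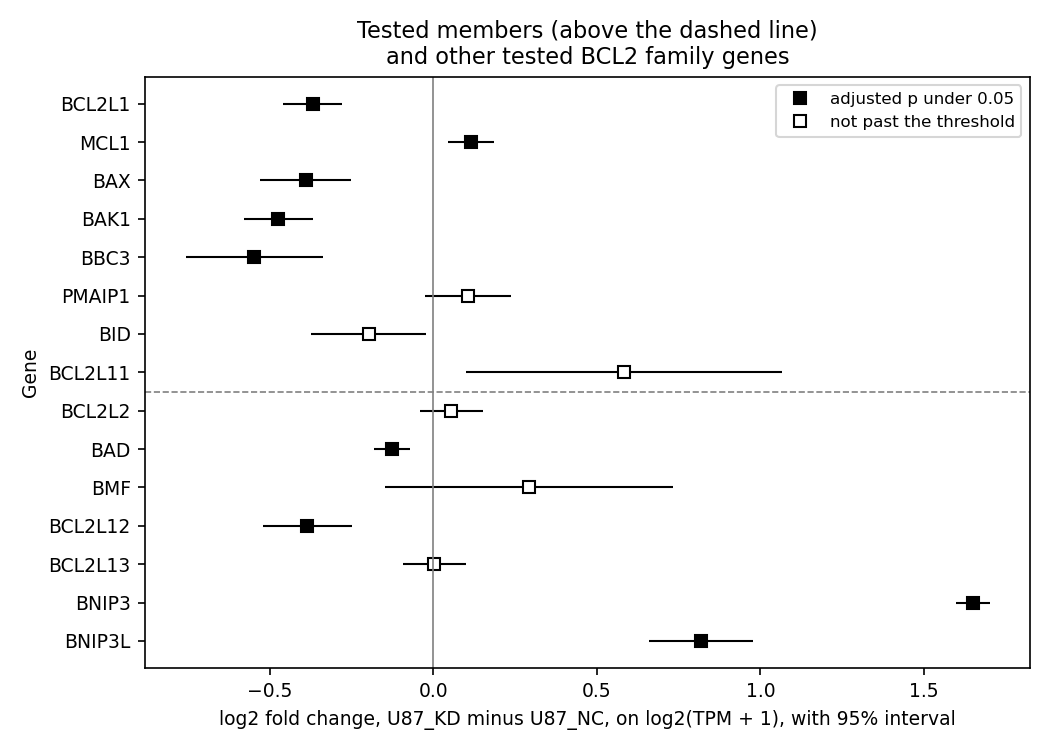
Log2 fold change (x axis, U87_KD minus U87_NC on log2(TPM + 1)) with its 95% interval for the 8 tested members and the 7 other tested BCL2 family genes; filled squares passed an adjusted p under 0.05. BAK1, BAX, BBC3 and BCL2L1 lie to the left of 0, and BNIP3 lies farthest to the right at 1.65.

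Downstream of the pores, 1 of 10 apoptosome and executioner genes fell and 1 rose, where 36.1% of all tested genes were called. The median log2 fold change was -0.02, and after median-of-ratios scaling 1 gene was lower and 3 were higher. HTRA2, a mitochondrial protease that counteracts the inhibitors of apoptosis once released, fell from 42.3 ± 1.08 to 32.4 ± 1.02 TPM, and ENDOG, a mitochondrial nuclease, rose from 13.4 ± 1.39 to 23.3 ± 3.16 TPM (SD, n = 3 each, limma adjusted p of 0.000609 and 0.00318). CYCS, APAF1, CASP9, CASP6, DIABLO and AIFM1 did not pass the threshold, although CASP6 and DIABLO did so as higher after median-of-ratios scaling. At an unadjusted p under 0.05 in limma, 4167 of all 13722 tested genes were lower and 2168 higher. Of 6 tested inhibitors of apoptosis, 1 was lower and 0 were higher by limma, and 1 gene in each direction had an unadjusted p under 0.05. The lower gene was BIRC5 (survivin), which also acts in cell division and went from 102.9 ± 1.15 to 79.6 ± 1.81 TPM (SD, n = 3 each, limma adjusted p = 0.000166).

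Among 10 mitochondrial membrane partners, 2 fell and 1 rose, where 24.0% of all tested genes were lower and 12.1% higher. VDAC2, the channel that binds BAK1 and BAX proteins, fell from 350.5 ± 7.35 to 309.3 ± 3.11 TPM, and its paralog VDAC1 rose from 304.8 ± 3.14 to 368.3 ± 0.542 TPM (SD, n = 3 each, limma adjusted p of 0.00115 and 8.257e-05). DNM1L, the fission enzyme, fell by 0.18 on the log2 scale (limma adjusted p = 0.0306), a call lost after median-of-ratios scaling. With that scaling 1 gene of this list was lower and 5 were higher. Of 6 tested genes for the turnover of MCL1 and related proteins, 1 was lower and 0 were higher by limma, and 4 and 0 had an unadjusted p under 0.05. At that unadjusted level, 4167 of all 13722 tested genes were lower and 2168 higher. HUWE1, a ubiquitin ligase for MCL1, differed by -0.14 on the log2 scale (adjusted p = 0.0197 by limma). Its call was also lost after median-of-ratios scaling, where no gene of the turnover list was called.

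The death receptor branch, which joins the family through BID, held 9 tested genes, of which 6 were lower and 0 were higher by limma, with the same counts at an unadjusted p under 0.05. Of all 13722 tested genes 24.0% were lower, and at an unadjusted p under 0.05 4167 were lower and 2168 higher. In this branch the count of lower genes was 2 after median-of-ratios scaling and 3 when a mean of 0.1 TPM was enough for testing. The median log2 fold change of the branch was -0.19. FAS, the receptor for FASLG, fell from 29.3 ± 0.866 to 19.5 ± 0.493 TPM, and TNFRSF10B, a receptor for TRAIL, fell from 61.2 ± 2.24 to 44.5 ± 1.11 TPM (SD, n = 3 each). Their log2 differences were -0.56 and -0.45 (limma adjusted p of 0.000153 and 0.00029). The other 4 lower genes, TNFRSF1A, FADD, RIPK1 and CFLAR, had log2 fold changes between -0.21 and -0.14, and none of these 4 was called after median-of-ratios scaling. CASP8, whose protein cuts BID, did not pass the threshold (log2 difference 0.08, 95% interval -0.08 to 0.24).

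**Figure D4:**
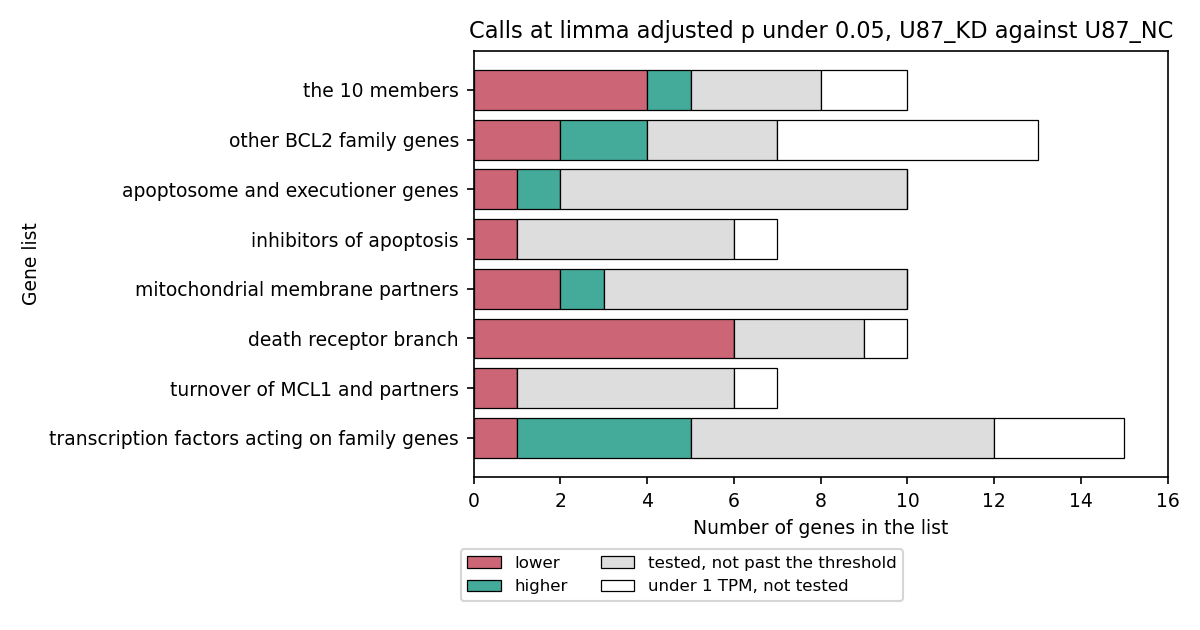
Number of genes (x axis) called lower or higher at limma adjusted p under 0.05, tested but not called, or under 1 TPM and not tested, in the member list and 7 lists of related genes (y axis). The death receptor list has 6 of 9 tested genes lower, and the member list has 4 of 8, where 24.0% of all tested genes were lower.

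Transcription factors that act on family genes went in both directions, with 1 of 12 tested genes lower and 4 higher. Over the whole table, 24.0% of tested genes were lower and 12.1% higher. The count of higher factors was 3 when a mean of 0.1 TPM was enough for testing. FOXO3, an activator of BCL2L11 and BBC3, rose from 7.40 ± 0.346 to 10.4 ± 0.267 TPM (SD, n = 3 each), or 0.44 on the log2 scale (adjusted p = 0.00144 by limma). STAT3, an activator of BCL2L1 and MCL1, rose from 27.5 ± 0.531 to 33.7 ± 1.99 TPM, and RELA, the NF-kB subunit that acts on BCL2A1 and BCL2L1, fell from 81.2 ± 1.89 to 71.0 ± 2.95 TPM (SD, n = 3 each, limma adjusted p of 0.00571 and 0.00934).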

How the data were processed

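RNA-seq of 6 U87-MG libraries was analysed, 3 U87_KD and 3 U87_NC, grouped by their labels. The values, as the authors deposited them, are TPM of each gene, with 2 decimals. The submitters' processing notes name fastp, RSEM and GRCh38.p13; versions and the annotation are not given in the sources used here. Symbols came from a table of gene names, and positions, transcripts and coding sequences from GENCODE 29 (GRCh38). Coding windows were taken from the principal transcript, or the longest where several ranked equally.

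Testing covered the 13722 genes whose average reached 1 TPM and used limma 3.58.1 in R 4.3.3 (lmFit, eBayes with a mean-variance trend, group as the only term) on log2(TPM + 1), two-sided, with Benjamini-Hochberg adjustment over all of them and a threshold of 0.05. The paper gives a general test for differences between groups and none specific to its transcriptome. The script was tested on simulated data. Exact permutation tests used SciPy 1.17.1. Members and lists were chosen with earlier results of these data known. Named genes were all members, all other tested family genes, and in each further list up to 2 largest called falls and rises. In addition, the other called genes of the death receptor list are named, and some genes of a list that were not called are named beside its count. Some genes and 1 gene list are not reported here. TPM keeps no depth, so no counting error is given, and the number of libraries limits the precision.

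Alternatives varied the pseudocount, the limit on low values, scaling, genes tested, variance model, threshold, a replicate block, and each library left out in turn.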

Additional observations from a re-analysis of the deposited data

How the results depend on the processing

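The falls of BCL2L1, BAX, BAK1 and BBC3 kept their direction and call under every alternative run, except that BBC3 was not tested with a limit of 5 TPM. Their log2 fold changes ranged from -0.40 to -0.30, -0.46 to -0.32, -0.50 to -0.40 and -0.68 to -0.49. No member changed direction in the alternatives run for it. BCL2 and BCL2A1 were run only in the 2 alternatives that lowered the limit on low values. Their direction with a library left out or after rescaling was not tested.

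The rise of MCL1 did not hold throughout. Its log2 fold change of 0.116 had an adjusted p of 0.0565 with no mean-variance trend and failed a threshold of 0.01, and it ranged from 0.099 to 0.131 with one library left out. It was larger after median-of-ratios scaling (0.185, adjusted p = 0.0042) and quantile normalization (0.174, adjusted p = 0.00423). PMAIP1 was past the threshold after median-of-ratios scaling (0.173) and quantile normalization (0.186), BID without U87_NC replicate 2 (leave-one-out range -0.271 to -0.154), and BCL2L11 among protein-coding genes only (0.583, adjusted p = 0.0346). BCL2L11 ranged from 0.427 to 0.721 with one library left out and was 0.90 with a pseudocount of 0.1 TPM. BCL2A1 (-0.764) passed when genes under 1 TPM were tested. The number of members called higher was therefore 2 with median-of-ratios scaling, quantile normalization or protein-coding genes only, 0 with no trend (2 at an unadjusted p under 0.05) or a threshold of 0.01, and 0 to 1 with one library left out. The number called lower was 3 with a limit of 5 TPM, where BBC3 was not tested, and 4 or 5 otherwise.

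At a threshold of 0.01, 1881 genes of the whole table were lower and 958 higher, against 3295 and 1660. The counts were 2250 and 2306 after median-of-ratios scaling and 2229 and 2233 after quantile normalization. After median-of-ratios scaling, which moved the median of all tested genes from -0.06 to 0.00, the other family genes had 1 lower, the apoptosome list 3 higher, the mitochondrial list 1 lower and 5 higher, the death receptor list 2 lower and the MCL1 turnover list 0 lower. The death receptor list had 3 lower with a limit of 0.1 TPM. The cause of these changes was not tested.

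Same-numbered libraries had correlations of their deviations from the group mean of -0.0198, 0.0341 and 0.0334. Those of differently numbered libraries ran from -0.0656 to 0.0336, so the ranges overlapped. These values cannot show whether the libraries were made in pairs, since each deviation is taken from a mean of only 3 libraries. With the replicate block, 5 members were lower and 1 higher, because BID also passed (-0.197, adjusted p = 0.0386), and 2638 genes were lower and 1369 higher. The depth of these libraries is unknown, and levels near 1 TPM limit what can be said of BCL2, BCL2A1 and BCL2L11.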
